A study of Mus musculus with 29 samples.

Results

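Genes of the neutrophil granule program, 10 of the 55376 gene symbols counted, were followed through RNA-seq of sorted hematopoietic stem cells (HSCs). They were taken by symbol as a named list: Mpo, Elane, Prtn3 and Ctsg for the primary granules, Ms4a3 and Cebpe for the promyelocyte that makes those granules, and S100a8, S100a9, Ltf and Ngp for the later cytosolic and secondary granule proteins. Each member was found in the files, and 10 of 10 passed the filter on low counts that left 33690 genes for testing.

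Neutrophils form in the bone marrow from granulocyte progenitors and load their granules in a fixed order. The promyelocyte fills primary (azurophil) granules with myeloperoxidase and the serine proteases neutrophil elastase, proteinase 3 and cathepsin G, while the myelocyte, under the transcription factor C/EBP epsilon, fills secondary granules with lactoferrin and related proteins. The calcium-binding proteins S100A8 and S100A9 accumulate in the cytosol of the maturing cell. HSCs stand far upstream of these stages and carry no granules, although transcripts of some primary granule genes are known in early progenitors.

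The 19 libraries came from wild-type (WT) mice and from mice that carry a knockout (KO) of Gadd45b (a strain of the JAX repository), in a young and an old group of each genotype. They comprise 4 libraries labelled YWT (young WT), 4 OWT (old WT), 4 YKO (young KO) and 7 OKO (old KO), and no group received a treatment. The labels give age as young or old without a number, and do not say whether a library came from 1 mouse or from a pool, so the p-values measure the spread between libraries. HSCs were sorted by the study as Lin- cKit+ Sca1+ CD34- Flk2- CD150+, with Mac-1 and Gr-1, surface proteins of myeloid cells, among the lineage antigens used for exclusion. Library totals ran from 22197555 to 77970627 counted reads. Gadd45b did not separate the libraries labelled YKO (5.14 to 14.3 CPM, reads scaled to library size) from YWT (7.33 to 17.5), whereas OKO (2.83 to 6.93) lay below OWT (10.1 to 15.5), so every direction that involves YKO is stated for the libraries labelled YKO. All 4 OWT and 4 of the 7 OKO libraries carry the title prefix IB15, and no YWT or YKO library does, so age in WT and this prefix cannot be told apart. The labels give female for all 19 libraries, yet 7 hold over 1000 reads of the Y-linked gene Ddx3y, 2 in YWT, 1 in OWT, 2 in YKO and 2 in OKO. The library OKO1 stood apart by its number of genes over 1 CPM, 22688 against at most 19189 elsewhere.

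Prtn3 and Elane encode a pair of related proteases and lie side by side on chromosome 10. In GENCODE M21 on mm10, Prtn3 (ENSMUSG00000057729.12) spans 79874476 to 79883174 on the plus strand and Elane (ENSMUSG00000020125.7) spans 79886247 to 79888215 on the same strand. The targeted gene Gadd45b is on the same chromosome, from 80930073 to 80932204, and begins 1.05 Mb past the end of Prtn3. RefSeq promoter sequences on GRCm38.p6 were found for 9 of 10 members (not Cebpe) and searched on both strands, in the 250 bases before the start site, for GAGGAA, a core motif of the myeloid factor PU.1, for TTNNGCAA, a C/EBP motif, and for TGTGGT, a RUNX motif. The 3 motifs occur in 23.3%, 9.56% and 14% of 32851 promoters, and no motif contains another. The promoters of Prtn3 and Elane are shown because both hold GAGGAA, at positions -95 and -85 from the start site, and neither holds the other motifs. The promoter of Ngp is shown as a late gene with TTNNGCAA, read here on the opposite strand, which S100a9 and Ltf also hold. Bases of annotated exons were removed, and capitals mark the motif. The Prtn3 sequence, chr10:79879417-79879613 on the plus strand, lies in an intron of longer annotated Prtn3 transcripts, the Elane sequence is chr10:79886062-79886246 on the plus strand, and the Ngp sequence is chr9:110419558-110419746 on the plus strand.
Prtn3: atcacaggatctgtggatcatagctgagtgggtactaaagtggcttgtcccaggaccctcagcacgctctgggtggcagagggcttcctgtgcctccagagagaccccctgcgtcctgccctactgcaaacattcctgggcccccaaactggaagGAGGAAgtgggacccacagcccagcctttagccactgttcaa
Elane: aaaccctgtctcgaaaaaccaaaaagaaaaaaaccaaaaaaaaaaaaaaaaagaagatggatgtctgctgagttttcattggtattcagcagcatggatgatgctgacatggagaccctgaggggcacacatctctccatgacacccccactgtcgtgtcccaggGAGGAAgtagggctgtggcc
Ngp: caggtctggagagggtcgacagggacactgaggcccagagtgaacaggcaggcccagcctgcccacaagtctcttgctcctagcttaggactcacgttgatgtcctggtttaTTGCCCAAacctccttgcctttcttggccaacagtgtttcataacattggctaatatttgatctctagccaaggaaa
GAGGAA was also present in the promoters of Mpo, Ctsg, S100a8 and Ltf, TGTGGT in those of Ctsg and S100a9, and none of the 3 motifs in that of Ms4a3. Each match is a description of letters, not evidence of a bound site.

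Prtn3, which encodes proteinase 3, was the most abundant member per length. Its median over the 19 libraries was 99.6 CPM per kb of exon, against 40 for S100a9, 33.6 for S100a8, 21.4 for Ngp, 7.34 for Mpo, 6.62 for Elane and 4.88 for Ltf. Ctsg, at 1.44, Ms4a3, at 0.981, and Cebpe, at 0.307 CPM per kb, were the lowest.

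Prtn3 was also the member with the clearest order of groups. Scaled by the TMM method, it measured 136, 138, 142 and 163 CPM in the 4 YWT libraries. In OWT it measured 331, 391, 227 and 305 CPM. In the libraries labelled YKO it measured 13.5, 35.3, 41.3 and 69.6 CPM, each below every other library of the study. In the 7 OKO libraries it ran from 117 to 293 CPM with a median of 240. The mean CPM of YWT was 145 ± 12.3 (SD, n = 4), that of OWT 314 ± 67.9 (SD, n = 4), that of YKO 39.9 ± 23.1 (SD, n = 4) and that of OKO 221 ± 64.8 (SD, n = 7). OWT and OKO overlapped, and OKO overlapped YWT through 1 library, OKO1 at 117 CPM, whereas YKO overlapped no other group. The lowest value, in YKO1, still rested on 253 reads.

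Mpo encodes myeloperoxidase, the peroxidase of primary granules that makes hypochlorous acid. It measured 23.1, 4.39, 30.5 and 51.3 CPM in YWT, and 65.3, 43.7, 124 and 110 CPM in OWT. The libraries labelled YKO gave 22.9, 44.9, 1.92 and 21.5 CPM, and OKO ran from 2.75 to 43.7 with a median of 20.7 CPM. The highest YWT library lay above the lowest OWT library, and the OKO and YKO ranges covered almost the same span.

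Elane encodes neutrophil elastase. It measured 6.52, 0.41, 8.97 and 6.89 CPM in YWT against 17.2, 16.4, 36.9 and 40.8 CPM in OWT, with no overlap. The libraries labelled YKO gave 5.53, 13.6, 0.479 and 1.78 CPM. OKO ran from 0.371 to 15.2 CPM with a median of 5.97, so its highest library lay just below the lowest OWT library. The single low YWT library, YWT2, was also the lowest of its group in Mpo, but not in Prtn3.

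Ctsg, the gene of cathepsin G, and Ms4a3, a membrane protein gene of granulocyte and monocyte progenitors, stayed low. Ctsg ran from 0.386 to 2.32 CPM in YWT, from 2.01 to 4.85 in OWT, from 0.292 to 1.62 in YKO and from 0.26 to 2.39 in OKO. Ms4a3 ran from 0.82 to 3.38 CPM in YWT, from 2.19 to 5.81 in OWT, from 1.00 to 2.20 in YKO and from 0.557 to 3.06 in OKO. Every group overlapped every other in both genes, except that all 4 OWT libraries lay above all 4 YKO libraries in Ctsg, while in Ms4a3 the highest YKO library just exceeded the lowest OWT library. Cebpe, which encodes C/EBP epsilon, was near the limit of detection, with 0 reads in YKO3 and OKO7. It measured 0.125 to 0.328 CPM in YWT, 0.871 to 1.61 in OWT, 0 to 0.602 in YKO and 0 to 0.942 in OKO, and its highest count was 114 reads.

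The later genes followed each other from library to library. S100a8, whose product pairs with S100A9 as calprotectin, measured 11.6, 19.3, 18.8 and 36.8 CPM in YWT and 102, 101, 85.3 and 46.8 CPM in OWT, with no overlap. The libraries labelled YKO gave 45.8, 37.0, 1.92 and 12.8 CPM, and OKO ran from 1.25 to 61.6 with a median of 19.5 CPM. S100a9 measured 13.3 to 47.6 CPM in YWT, 43.2 to 94.9 in OWT, 2.88 to 51.9 in YKO and 1.29 to 54.9 in OKO. These ranges overlap in every pair of groups. Ltf, the gene of the iron-binding protein lactoferrin, measured 7.83 to 28.6 CPM in YWT, 13.7 to 103 in OWT, 0.834 to 54.9 in YKO and 0.522 to 49.3 in OKO. Ngp, which encodes neutrophilic granule protein, measured 8.21 to 49.5 CPM in YWT, 30.2 to 139 in OWT, 0.667 to 72.3 in YKO and 1.45 to 66.6 in OKO. YKO3 and OKO7 were the lowest libraries of their groups in each of the 4 genes. In bulk RNA, fewer cells of a type and less RNA per cell cannot be told apart.

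**Figure D1:**
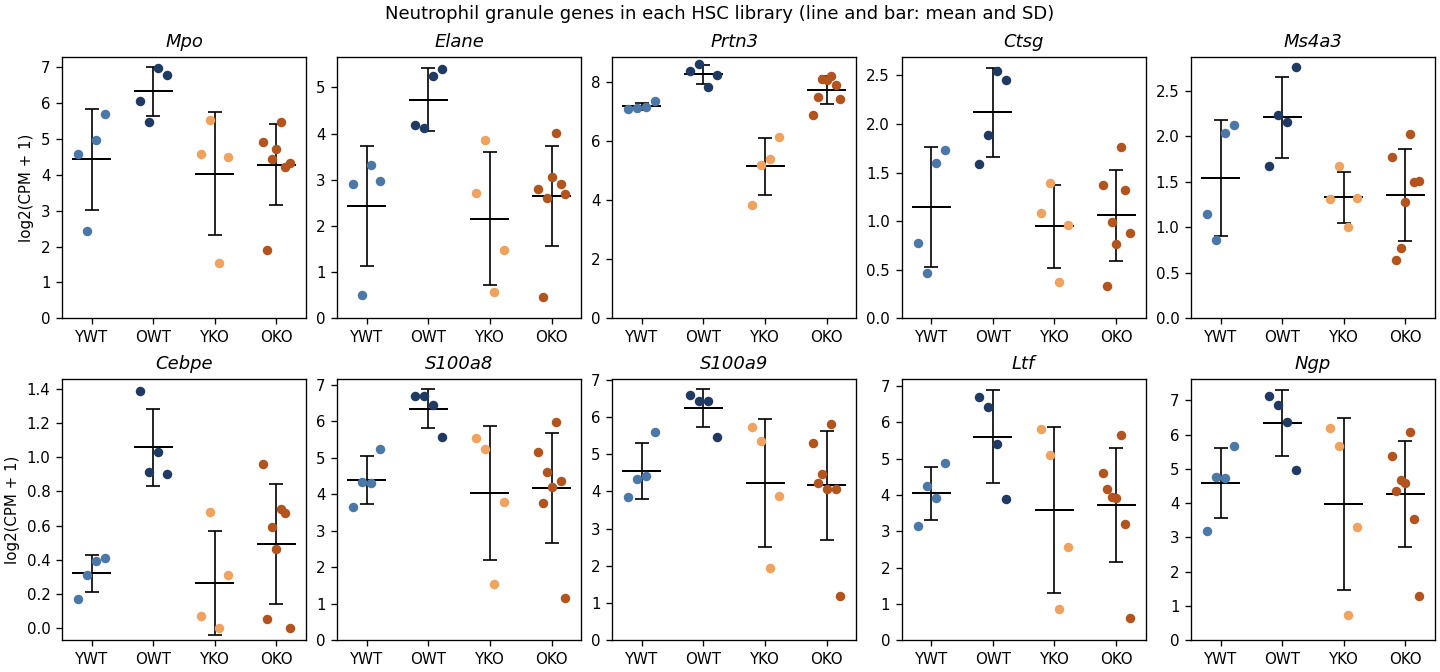
Level of each of the 10 genes in each library, as log2(CPM + 1) on the vertical axis, by group on the horizontal axis; points are libraries, lines are means and bars are SD (n = 4, 4, 4 and 7). Prtn3 is lowest in the 4 libraries labelled YKO (13.5 to 69.6 CPM), whereas the other 9 genes spread widely within groups and are highest on average in OWT.

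The comparison of OWT with YWT addressed WT aging. All 10 fold changes were above 0, with a median of 1.69 on the log2 scale against -0.05 over all genes tested, but the edgeR quasi-likelihood test called 0 of 10 members (adjusted p under 0.05 together with more than a 1.5-fold change), where 0.00297% of all genes were called in either direction. DESeq2 also called 0 of 10, where it called 0.401% of all genes. At an unadjusted p under 0.05, 7 of 10 were higher, where the share of all genes was 2.64%. The members are not independent counts, since S100a8, S100a9, Ltf and Ngp varied together within groups (Pearson r 0.944 to 0.989). In 4 of 10 (Elane, Prtn3, Cebpe and S100a8) each OWT library exceeded each YWT library, where 2.24% of all genes did so. Elane was 4.88-fold higher (log2 2.29, SE 0.86, adjusted p = 0.941 by edgeR), S100a8 3.88-fold (log2 1.96, SE 0.76, adjusted p = 0.976) and Prtn3 2.17-fold (log2 1.12, SE 0.35, adjusted p = 0.59). When only YWT and OWT were fitted, Prtn3 was called (log2 1.10, edgeR adjusted p = 0.0352), in a fit that called 0.158% of all genes. All OWT and no YWT libraries carry the IB15 prefix, so these values cannot be assigned to age. Sizes depended on the setting. With the prefix as a covariate and without the libraries with Ddx3y reads, respectively, the log2 fold change of Elane was 1.11 and 3.24, that of Ctsg 0.84 and 2.83 against 1.36 with neither, and that of Ms4a3 0.10 and 1.97 against 0.83. The prefix term of that fit rests on OKO alone, the only group with libraries of both prefix states.

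The comparison of YKO with YWT addressed loss of Gadd45b in young HSCs. Prtn3 measured 3.62-fold lower in the libraries labelled YKO (log2 -1.86, SE 0.35, 95% interval -2.59 to -1.12, unadjusted p = 3.02e-05) and just missed the threshold (edgeR adjusted p = 0.0647), so 0 of 10 members were called, where 0.0267% of all genes were. It was the only 1 of 10 at an unadjusted p under 0.05, where 2.68% of all genes were lower at that limit, and the only 1 of 10 whose groups did not overlap, lower in YKO, as 3% of all genes were. DESeq2 called it (adjusted p = 3.18e-05), in a fit that called 0.404% of all genes. With edgeR it was called under upper-quartile normalization (adjusted p = 0.0317, with 0.0564% of all genes called), without the filter (0.0277, with 0.038%) and with the prefix as a covariate (0.0249, with 0.101%). No YWT or YKO library carries the prefix, so the covariate cannot adjust this comparison, and the log2 fold change of Prtn3 stayed at -1.85. Of the edgeR fits that left out 1 library, only those without YKO4 (adjusted p = 0.0211, with 0.0224% of all genes called) and without OKO1 (0.0337, with 0.0438%) called Prtn3. In the others its edgeR adjusted p ran up to 0.241, without YKO2. Prtn3 also missed the threshold with the compared groups only (edgeR adjusted p = 0.132, with 0.127% of all genes called) and without TMM (0.0832, with 0.0148%). Without the libraries with Ddx3y reads the log2 fold change was -2.54 and the edgeR adjusted p 0.146. That fit kept YKO1 and YKO2, whose Gadd45b (12.7 and 14.3 CPM) lay within the YWT range of 7.33 to 17.5. It left out YKO3 and YKO4, whose Gadd45b was lower (5.98 and 5.14 CPM). The other 9 fold changes lay between -0.46 and 0.45, with intervals such as -1.72 to 1.19 for Mpo and -1.36 to 1.70 for S100a8 that leave changes of either sign possible, and their directions turned with the libraries and scaling used.

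The comparison of OKO with YKO addressed aging in KO HSCs. Prtn3 rose 5.53-fold (log2 2.47, SE 0.34, edgeR adjusted p = 0.000604), the only call, 1 of 10, where 1.29% of all genes were called and 0.597% were called higher. When each library was left out in turn, the share of all genes called ran from 0.284% without YKO1 to 5.47% without OKO7, and it was 19.1% with the prefix as a covariate. Prtn3 was called in each of these fits. All 7 OKO libraries lay above all 4 libraries labelled YKO, as in 1.11% of all genes. The OKO libraries without the IB15 prefix, the state of all YKO libraries, gave 191 ± 79.5 CPM (SD, n = 3) and those with it 243 ± 51.7 (SD, n = 4). Within libraries without the prefix the log2 fold change was 2.32 (adjusted p = 0.00193), in a fit that called 17.9% of all genes. Over all alternatives Prtn3 remained called, with log2 fold changes of 2.21 to 3.31, the highest without the libraries with Ddx3y reads. That fit kept YKO1 and YKO2 but not YKO3 and YKO4, the libraries labelled YKO with the lower Gadd45b. The median gene differed by 0.235 in this comparison, by 0.435 with upper-quartile normalization and by 0.627 without TMM. The other 9 members lay between -0.37 and 0.92, with S100a8 at 0.00 (interval -1.36 to 1.36) and Mpo at -0.01 (interval -1.30 to 1.28). Both comparisons in which Prtn3 stood out share the 4 libraries labelled YKO and are not independent.

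The comparison of OKO with OWT addressed loss of Gadd45b in old HSCs. All 10 fold changes were below 0, with a median of -1.73 against 0.12 over all genes. However, edgeR called 0 of 10, where 0.0327% of all genes were called, and DESeq2 called 0 of 10, where 0.217% were. At an unadjusted p under 0.05, 8 of 10 were lower, where 2.23% of all genes were, again over members of which several vary together. In 2 of 10, Mpo and Elane, all OKO libraries lay below all OWT libraries, where 0.359% of all genes did, in each case by a narrow gap. Mpo was 3.79-fold lower (log2 -1.92, SE 0.61) and Elane 4.24-fold lower (log2 -2.08, SE 0.71), both at an adjusted p of 0.592. Prtn3 had the smallest difference, 1.42-fold lower (log2 -0.50, SE 0.30, adjusted p = 0.596). With only the 4 OKO libraries that carry the IB15 prefix, as all OWT do, 10 of 10 fold changes again lay below 0 and 0 were called, in a fit that called 0.0801% of all genes. This comparison and that of OWT with YWT share the 4 OWT libraries. The genotype by age interaction was called for 0 of 10 members and 0% of all genes by edgeR; at an unadjusted p under 0.05 it held 1 of 10, Prtn3 (log2 1.35, SE 0.46, unadjusted p = 0.0082, adjusted p = 0.811), where 3.4% of genes were past that limit in the same direction. The other 9 interaction terms were below 0, between -2.20 and -0.70. DESeq2 called 0 members and 7 genes of all.

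**Figure D2:**
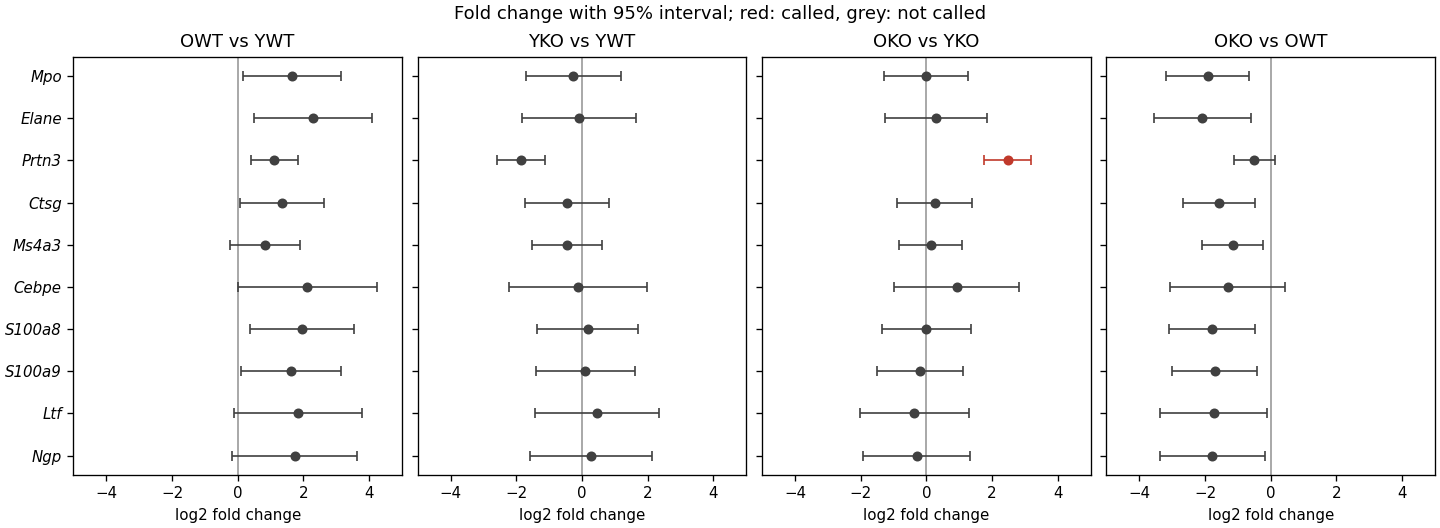
Log2 fold change (horizontal axis) of each of the 10 genes (vertical axis) in the 4 comparisons, as point and 95% interval from edgeR; red marks a called gene. Prtn3 in OKO vs YKO is the only call (2.47), and it lies at -1.86 in YKO vs YWT, where the intervals of the other 9 genes include 0.

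Within groups, no correlation of Prtn3 with its neighbour Elane was detected, although both were higher in OWT than in YWT without overlap. The ratio of Prtn3 to Elane reads ran from 2.43 to 488 over the 19 libraries, and from 2.43 to 86.1 without YWT2 and OKO2, in which Elane had 17 and 20 reads, while that of Mpo to Elane ran from 2.67 to 12.1. By contrast, S100a8 and S100a9, which lie close together on chromosome 3, kept a read ratio of 0.667 to 1.24, while S100a8 itself varied 82.2-fold. Ngp and Ltf, both on chromosome 9, kept a ratio of 0.8 to 2.77 while Ngp varied 208-fold. The mean of each group was then removed from log2(CPM + 1), and 45 pairs of members were correlated over the 19 libraries, with permutation tests (100000 draws, two-sided) that shuffled libraries within groups. The 6 pairs of late genes had r between 0.944 and 0.989, rho between 0.898 and 0.965, and a permutation adjusted p for r of 7.5e-05 at most. For Mpo with Elane, r was 0.924 (permutation adjusted p = 0.00018) and rho 0.846 (0.000169), and without the 2 libraries farthest from the median of Mpo r was 0.883. Of the 10 pairs among Mpo, Elane, Ctsg, Ms4a3 and Cebpe, 6 passed an adjusted p of 0.05, none of them with Cebpe. The pairs of Cebpe with these early genes had r from 0.321 to 0.528 and fell short. Of the 20 pairs of an early with a late gene 2 passed, both of Cebpe. They were with S100a8 (r = 0.68, permutation adjusted p = 0.0285) and with S100a9 (r = 0.642, permutation adjusted p = 0.0481). By rank the pair with S100a8 passed (rho 0.693, permutation adjusted p = 0.0188) and that with S100a9 did not (rho 0.604, permutation adjusted p = 0.0574). Without the 2 libraries farthest from the median of Cebpe, r was 0.544 and 0.459. Of the 9 pairs with Prtn3, 0 did, with r between -0.218 and 0.117 and rho between -0.114 and 0.275. For Prtn3 with Elane r was -0.0993 (permutation p = 0.783) and rho -0.114 (p = 0.677), and without the 2 farthest libraries r was -0.243.

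**Figure D3:**
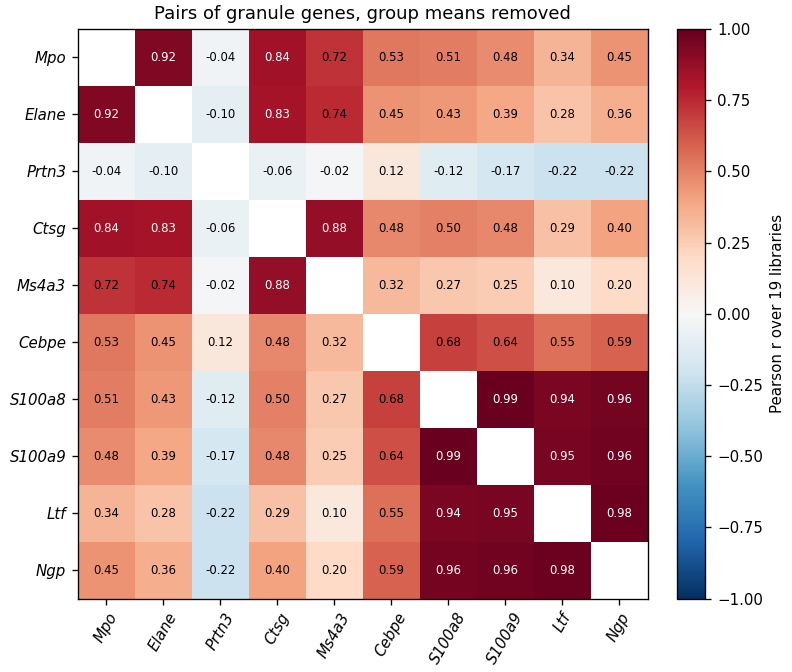
Pearson r of each pair of the 10 genes over 19 libraries after the group means were removed, as color and number, with the genes on both axes. The 4 late genes form a block (0.944 to 0.989), Mpo, Elane, Ctsg and Ms4a3 a second block, and the row of Prtn3 lies between -0.218 and 0.117.

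A gene on the opposite strand limits the reading of Prtn3 and of Mpo, since the strand setting of the counts is not given. The exons of Prtn3 share 159 bases, 9.18% of their length, with the antisense gene Plppr3 (phospholipid phosphatase related 3), and those of Mpo share 512 bases, 15%, with the antisense transcript Gm11505. Plppr3 itself measured 152 to 160 CPM in YWT, 167 to 331 in OWT, 135 to 256 in YKO and 191 to 484 in OKO. It was not called in any comparison, with a log2 fold change of 0.34 (SE 0.30) in YKO vs YWT, where Prtn3 had -1.86. The ratio of Prtn3 to Plppr3 reads was 0.0998 to 0.272 in the libraries labelled YKO, 0.865 to 1.02 in YWT, 0.521 to 1.1 in OKO and 1.15 to 1.82 in OWT. Mpo kept a ratio of 2.32 to 7.4 to Gm11505. These antisense genes were picked after the data were seen.

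**Figure D4:**
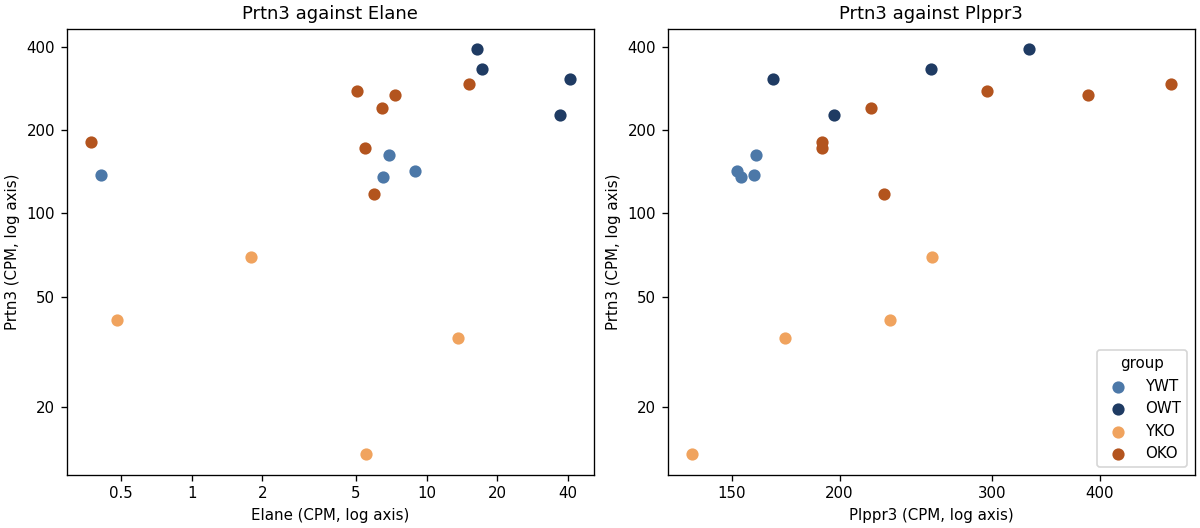
Prtn3 (vertical axis, CPM, log scale) against Elane and against Plppr3 (horizontal axes, CPM, log scale), one point per library, coloured by group. The 4 libraries labelled YKO lie below 70 CPM of Prtn3 although their Elane (0.479 to 13.6 CPM) lies within the range of other groups and their Plppr3 runs from 135 CPM, below the 152 CPM minimum elsewhere, to 256 CPM.

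Of the 11 protein-coding genes within 50000 bases of Prtn3, itself and Elane included, edgeR called 2 in OKO vs YKO, both higher, where 0.597% of all genes were called higher. Of these 2, Prtn3 was given, since the window was centred on it. The other was Kiss1r, the kisspeptin receptor gene, with a mean CPM in YKO of 2.37 ± 0.94 (SD, n = 4) against 8.84 ± 4.38 (SD, n = 7) in OKO (log2 1.89, SE 0.41, adjusted p = 0.0207). In YKO vs YWT, Kiss1r had a log2 fold change of -0.08 (SE 0.43), unlike Prtn3. Cfd, the complement factor D gene beyond Elane, measured 1.71 CPM at most and was not called.

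Other genes of the granule program were given by list. Of 10 further genes listed for the primary granule stage, not all of them genes of granule proteins, 0 were called in any of the 4 comparisons. The list includes Prss57 (a related serine protease) and Ctsc (the protease that activates elastase and proteinase 3). Its fold changes were above 0 in 9 of 10 in OWT vs YWT (median 0.42) and below 0 in 10 of 10 in OKO vs OWT (median -0.32). Of 16 secondary granule and mature neutrophil genes 0 were called, with 16 of 16 above 0 in OWT vs YWT (median 0.98) and 15 of 16 below 0 in OKO vs OWT (median -1.07). Camp, the cathelicidin gene, had medians of 7.92 CPM in YWT, 35.1 in OWT, 12.5 in YKO and 7.60 in OKO. Lcn2, which encodes the secondary granule protein lipocalin 2, ran from 2.60 to 10.9 CPM in YWT, 5.39 to 30.2 in OWT, 0.0834 to 11.7 in YKO and 0.0402 to 19 in OKO. Among 12 regulators of granulopoiesis 1 was called, Irf8, a factor that favours monocytes over granulocytes. It fell by 2.36 on the log2 scale in OKO vs YKO (SE 0.42, adjusted p = 0.00576), where 0.692% of all genes were called lower. Irf8 measured 23.1 to 164 CPM in the libraries labelled YKO and 7.55 to 25.0 in OKO. Cebpa, which starts the granulocyte program, measured 3.04 to 4.81 CPM in YKO and 0.712 to 2.85 in OKO (log2 -1.44, SE 0.41, adjusted p = 0.08). Of the 12 regulators, 8 had fold changes above 0 in OKO vs YKO. They included Csf3r, the receptor gene of the granulocyte growth factor G-CSF (log2 1.57, SE 0.40, adjusted p = 0.0502), and Cebpd, a C/EBP family factor (log2 1.30, SE 0.35, adjusted p = 0.0648), both short of the threshold. In these 2 all OKO libraries lay above all YKO libraries, as in 1.11% of all genes. In 2 others, Cebpa and Myb (407 to 652 CPM in YKO, 175 to 383 in OKO), all OKO libraries lay below all YKO libraries, as in 1.48% of all genes.

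Markers of other cells moved with the same libraries, and their part in the results was not tested. The 10 HSC markers, among them Procr, Slamf1 and Kit, summed to 2310 to 3030 CPM in YKO, 2730 to 3510 in YWT, 3180 to 4860 in OWT and 2400 to 4250 in OKO, and 0 were called in any comparison. Their fold changes had the direction of that of Prtn3 in most cases, with 10 of 10 above 0 in OWT vs YWT (median 0.48), 9 of 10 below 0 in YKO vs YWT (median -0.49), 9 of 10 above 0 in OKO vs YKO (median 0.49) and 10 of 10 below 0 in OKO vs OWT (median -0.39). The 10 erythroid markers summed to 1670 to 4800 CPM in YKO against 692 to 2100 in YWT, 188 to 958 in OWT and 42.5 to 2580 in OKO. In YKO vs YWT 1 of them was called higher, Alas2, the first enzyme of erythroid heme synthesis (log2 2.22, SE 0.39, adjusted p = 0.043), and in OKO vs YKO 6 were called lower. These 6 include Alas2 (log2 -4.42), and Hba-a1 (log2 -4.22) and Hbb-bs (log2 -4.37), globin genes whose near-identical copies can share reads. Of all genes, 0.0208% were called higher in YKO vs YWT. In OKO vs YKO 0.692% of all genes were called lower, the share to set beside each count of markers called lower in this paragraph. The 10 B cell markers summed to 924 to 5380 CPM in YKO, 890 to 4270 in YWT, 606 to 1280 in OWT and 140 to 1500 in OKO, and 6 were called lower in OKO vs YKO, among them Cd22 (log2 -6.18). The 10 T cell markers summed to 31.3 to 143 CPM in YKO against 18.9 to 31.0 in YWT, 19.2 to 32.3 in OWT and 12.2 to 52.0 in OKO, and 2 (Cd3e and Cd4) were called lower in OKO vs YKO. Within YKO the T cell sum was 143 and 100 CPM in YKO1 and YKO2, against 37.8 and 31.3 in YKO3 and YKO4. The B cell sum split likewise, at 3146 and 5379 CPM against 1175 and 924. The HSC, erythroid, and monocyte and macrophage sums were instead lower in YKO1 and YKO2 than in YKO3 and YKO4. The 10 monocyte and macrophage markers summed to 406 to 592 CPM in YKO, 486 to 690 in YWT, 574 to 954 in OWT and 209 to 735 in OKO, with 3 called lower in OKO vs YKO (Csf1r, Ccr2 and Cx3cr1). The 10 mast cell, basophil and eosinophil markers summed to 10.6 to 123 CPM in YKO, 23.6 to 430 in YWT, 22.1 to 42.8 in OWT and 5.66 to 49.0 in OKO, and 5 progenitor markers outside the HSC gate to 136 to 162, 157 to 244, 140 to 315 and 88.9 to 353 CPM. Of both lists 0 were called. No marker was at 0 in every library of a group, and of the mature neutrophil markers Ly6g reached 1.06 CPM at most and Itgam, the Mac-1 gene used in the sort, 7.48 CPM.

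The genes most like the members were found among 11295 non-member genes whose mean log2(CPM + 1) reached 3, by Pearson r over the 19 libraries, which share age, genotype and depth differences. The mean profile of the 4 late genes was closest to Camp (r = 0.99), Chil3 (0.96), Kctd12 (0.77) and Gm26778 (0.76), of which Camp and Chil3 are themselves on the mature neutrophil list. The profile of the 4 primary granule genes was closest to Gm11505 (0.91), which overlaps Mpo, and then to Ggps1 (0.76), Il18rap (0.75), Ttc30b (0.73) and Magi3 (0.72). Prtn3 alone, a profile added after the data were seen, was closest to Emb (0.92), Clec1a (0.92), Hnmt (0.91), Tctex1d2 (0.91) and Cpne8 (0.91), none of which is on the granule lists.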

How the data were processed

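RNA-seq of 19 HSC libraries was analysed. The bisulfite sequencing of the study was not analysed here. Libraries were prepared by the study with the SMART-Seq v4 kit. The authors trimmed reads with Trim Galore 0.4.3 and cutadapt, used STAR with a GENCODE M22 index of mm10 for alignment and featureCounts for counting, and deposited raw read counts per gene symbol, without normalization, for each library. The strand setting, and whether mates were counted singly, are not given in the sources used here.

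Counts were filtered with filterByExpr, scaled by TMM and tested with the quasi-likelihood test of edgeR 4.0.16 in R 4.3.3, in 1 fit of the 19 libraries, with the 4 group means as its only terms. A gene was called at a Benjamini-Hochberg adjusted p under 0.05 over the 33690 genes tested and a fold change over 1.5, and the interaction on the adjusted p alone. CPM values use TMM. DESeq2 1.42.0, the tool of the study, was an alternative. The other alternatives were upper-quartile normalization, no filter, the adjusted p alone, the compared groups only, the title prefix as a covariate, OKO of 1 prefix state, the replicate number as a block and leaving out each library. Library totals without TMM and leaving out libraries with over 1000 Ddx3y reads were added after the data were seen. Scripts were tested on simulated data.

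Gene positions and exon lengths are those of GENCODE M21 on mm10, and promoter sequences those of RefSeq on GRCm38.p6. The text names all 10 members, genes of other lists called in any comparison (at most 4 per list, by lowest adjusted p), Cebpa, Camp and Lcn2, and the 5 genes most like each profile, except that some items are not reported here. Prss57, Ctsc, Csf3r, Cebpd, Myb, Kiss1r, Cfd, Ly6g, Itgam and the HSC markers were named in addition, after their values were seen. The members and lists were chosen with earlier results of these data known.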

Additional observations from a re-analysis of the deposited data

Results flagged for a closer look

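In 40 sets of log2(CPM + 1) values (10 genes in 4 groups), 5 held a library at the edge of its group whose gap to the next exceeded the 95% limit of Dixon's test, where chance gives about 2 at 1 in 20. The sets are not independent, since several members vary together. Gaps were judged on the log2 scale, and the values that follow are in CPM. Mpo was 2.75 CPM in OKO2, with the next library at 17.7. Elane was 0.371 CPM in the same library, with the next at 5.06, and 0.41 CPM in YWT2, with the next at 6.52. Prtn3 in OKO2 (181 CPM) and YWT2 (138 CPM) was not set apart from its group. S100a9 was 43.2 CPM in OWT4, with the next at 84.8, and 1.29 CPM in OKO7, with the next at 15.8. OKO7 was also the lowest OKO library in S100a8 (1.25 CPM), Ltf (0.522 CPM) and Ngp (1.45 CPM).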

How the results depend on the processing

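Over 10 members, 5 contrasts and the alternatives run, the call of Prtn3 in OKO vs YKO held throughout, in fits that called 0.284% to 19.1% of all genes. In OKO vs OWT and for the interaction 0 members were called, where at most 0.217% and 0.0208% of all genes were. The count of members called in OWT vs YWT was 1 (Prtn3) with the compared groups only, where 0.158% of all genes were called. In YKO vs YWT the count was 1 (Prtn3) under DESeq2 (0.404% of all genes called), upper-quartile normalization (0.0564%), no filter (0.038%), the prefix covariate (0.101%) and the replicate block (0.0742%). The prefix covariate cannot adjust this comparison, since neither of its groups carries the prefix. The count of members called in YKO vs YWT ran from 0 to 1 when a library was left out, where 0.00566% to 0.0601% of all genes were called. The cause was not tested. The 10 members stayed higher in OWT vs YWT and lower in OKO vs OWT in every setting run.

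Uncalled members turned direction only in YKO vs YWT and OKO vs YKO. In YKO vs YWT the replicate block gave 0.21 for Mpo, 0.32 for Elane, -0.14 for S100a8, -0.22 for S100a9, -0.38 for Ltf and -0.37 for Ngp. Library totals without TMM gave -0.01 for S100a8 and -0.11 for S100a9. Without the libraries with Ddx3y reads the values were 1.25 for Mpo, 1.41 for Elane, 1.26 for Ctsg, 0.81 for Ms4a3 and 0.88 for Cebpe. In OKO vs YKO, Mpo was 0.05 with DESeq2, 0.10 with upper-quartile normalization, 0.09 without the filter and 0.30 without TMM, where S100a9 was 0.24, Ltf 0.03 and Ngp 0.13. The prefix covariate gave -0.49 for Elane, -0.07 for Ctsg, -0.33 for Ms4a3 and -0.05 for S100a8. The replicate block gave -0.61 for Elane, -0.35 for Ctsg, -0.38 for Ms4a3, 0.14 for Ltf and 0.12 for Ngp. OKO without the prefix gave -0.41 for Elane and -0.26 for Ms4a3. Without the libraries with Ddx3y reads the values were -0.86 for Elane, -0.59 for Ctsg, -0.46 for Ms4a3, -0.07 for Cebpe and -1.39 for S100a8.

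When each library was left out in turn, YKO vs YWT ran from -0.37 to 0.55 for S100a8, -0.47 to 0.62 for S100a9, -0.51 to 0.71 for Ngp, -0.43 to 0.82 for Ltf, -1.20 to 0.22 for Elane, -0.86 to 0.23 for Mpo and -1.25 to 0.24 for Cebpe. OKO vs YKO ran from -0.31 to 0.61 for Mpo, -0.42 to 0.54 for S100a8, -0.56 to 0.37 for S100a9, -0.86 to 0.51 for Ltf, -0.71 to 0.47 for Ngp, -0.06 to 1.43 for Elane, -0.02 to 0.66 for Ctsg and -0.08 to 0.39 for Ms4a3.

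Replicate numbers did not pair the samples. Deviations of same-numbered libraries from their group means correlated over 24 pairs between -0.45 and 0.277, with 2 over 0.1. With the replicate block Prtn3 in YKO vs YWT had a log2 fold change of -2.00 and an adjusted p of 0.0419 by edgeR. In that fit OKO5 to OKO7, whose numbers no other group shares, add nothing.

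Precision differed between members: in OWT vs YWT the standard error on the log2 scale was 0.35 for Prtn3 and 0.51 to 1.02 for the other 9.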
